A study of Mus musculus with 6 samples.

Results

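Tetraspanins are small proteins that cross the membrane repeatedly and carry a large outer loop with a conserved cysteine motif. They gather integrins, immunoglobulin-type receptors, proteases and signalling receptors into patches of the cell surface and of endosomes, and they steer the trafficking of those partners. In blood cells they are known for roles in adhesion, in the display of surface receptors, and in granules and secreted vesicles. The genes described here were all those whose platform annotation gave a probe set exactly 1 symbol of the form Tspan and a number, or 1 of Cd9, Cd37, Cd53, Cd63, Cd81, Cd82 and Cd151. This gave 26 genes of the 19938 tested, each with 1 probe set, and no filter on dim signal was applied. Tspan7 was not analysed here.

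Transcript signal was measured on 6 Affymetrix arrays of URE cells, a mouse myeloid leukaemia line. As background, URE cells come from leukaemic mice that lack an upstream regulatory element of the gene for the transcription factor PU.1, and both groups share that deletion. The 3 shHLX arrays came from cells carrying a lentiviral hairpin against Hlx, a homeobox transcription factor gene, and the 3 shControl arrays from cells carrying a hairpin against luciferase. In both groups the vector also encoded copGFP, fluorescent cells were sorted, and cells were cultured for several days. The number of different hairpins against Hlx was not stated in the sources used here. The study asked what Hlx does in blood cell differentiation and in tumour formation.

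Hlx itself had log2 signals of 10.08, 10.06 and 10.17 on the shHLX arrays, against 10.21, 10.12 and 10.20 on the shControl arrays. These values overlap. Their difference of -0.07 was not called by limma (adjusted p = 0.479), and an exact two-sided permutation test gave p = 0.2, where 0.1 is the smallest value that 3 arrays against 3 allow. A knockdown is thus not visible in Hlx mRNA, and shHLX and shControl below are the labels, on which every direction rests. The second principal component (18.1% of the variance) separated shControl 1 and shHLX 3 from the remaining arrays. Of 12 myeloid markers, 11 lay at percentile 61.0 of signal or above and Ptprc, which encodes CD45, lay at percentile 23.2. In such bulk RNA, fewer cells of a type and less RNA per cell cannot be told apart.

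The tetraspanin genes moved in both directions. Of the 26, 4 were higher (Cd53, Tspan6, Tspan13 and Cd151) and 4 were lower (Tspan12, Cd82, Cd63 and Tspan17) on the shHLX arrays at a limma adjusted p under 0.05. That is 30.8% of the members, beside 6.18% of all genes tested (3.75% higher and 2.43% lower). Values of the groups lay fully apart for 11 of the 26 members, beside 26.2% of all genes. A change of at least 1.5-fold was seen for Tspan12, Cd82 and Cd63, or 3 members, beside 1.31% of all genes. The median log2 difference was -0.06 over the 26 members and -0.01 over all genes.

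**Figure D1:**
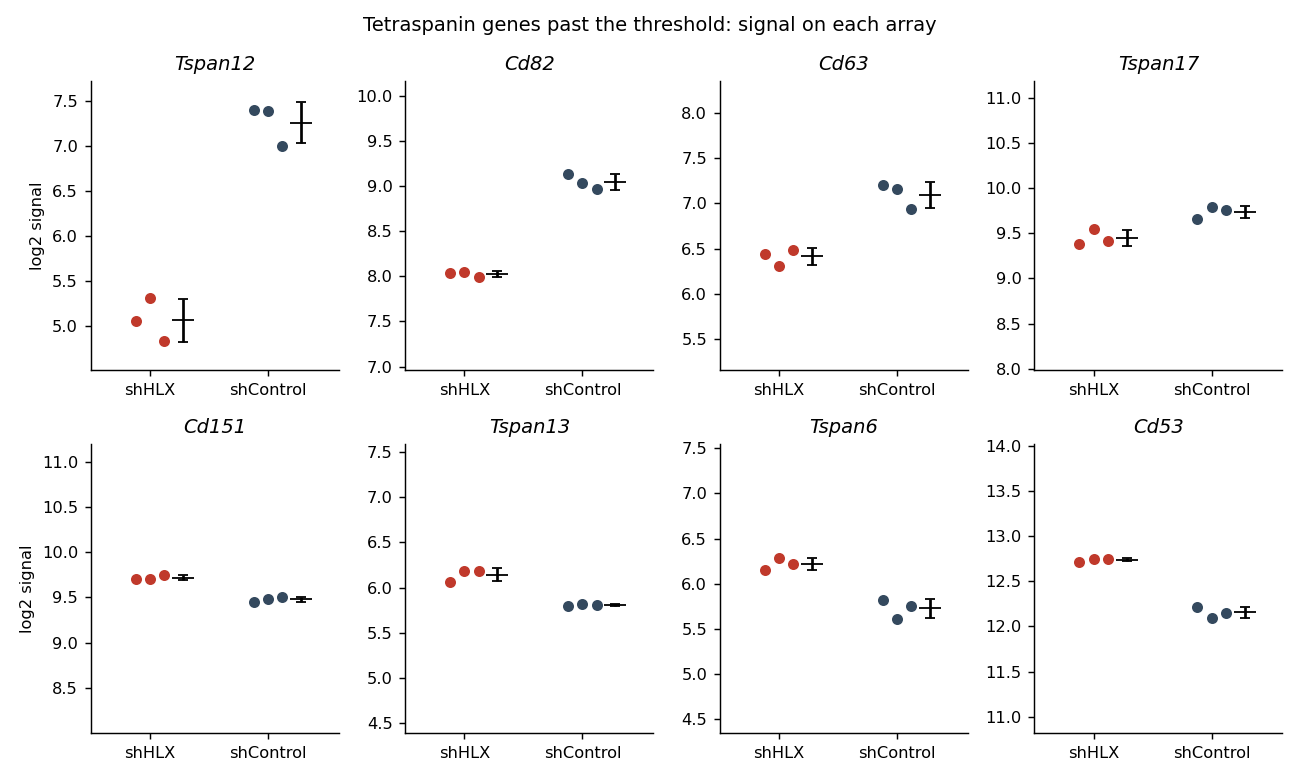
Log2 signal of the 8 tetraspanin genes past the threshold, with 1 point per array (left to right, replicates 1 to 3), a horizontal bar for the group mean and whiskers for 1 SD. Every vertical axis spans the same range. In all 8 panels the shHLX points lie wholly below (top row) or wholly above (bottom row) the shControl points, and Tspan12 shows the widest gap.

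**Figure D2:**
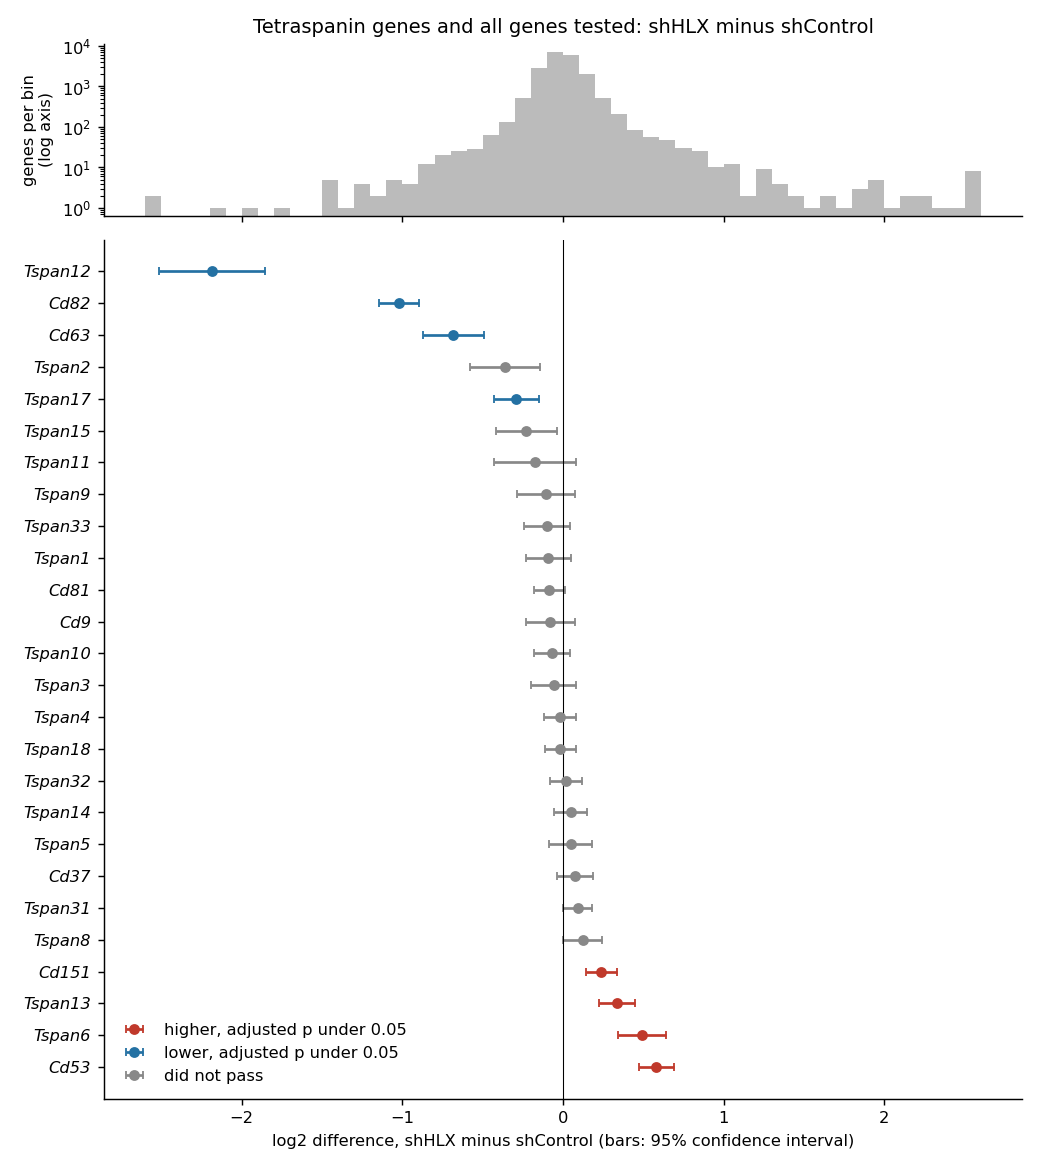
Lower panel: log2 difference (shHLX minus shControl) of each of the 26 tetraspanin genes with its 95% confidence interval. Upper panel: histogram of the same difference over all 19938 genes on a log axis, with values past the ends of the plot placed in the outermost bins. Of the 26 genes, 18 did not pass the test, and the largest of their differences was the -0.36 of Tspan2.

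Tspan12 encodes an accessory subunit of the receptor for norrin, in which it binds the Wnt receptor FZD4 beside the co-receptor LRP5 in retinal vessels. It showed the largest change of the family. Its log2 signals were 5.06, 5.31 and 4.84 on the shHLX arrays, against 7.39, 7.38 and 6.99 on the shControl arrays. The closest shHLX and shControl arrays were 1.68 log2 units apart. The means were 5.07 ± 0.24 on shHLX arrays and 7.26 ± 0.23 on shControl arrays (SD, n = 3 each), so the shHLX signal was 22.0% of the shControl signal (95% confidence interval 17.5% to 27.6%, limma adjusted p = 9.84e-05). The mean lay at percentile 9.55 of all genes on the shHLX arrays and at percentile 47.8 on the shControl arrays. Without detection values it cannot be said whether the shHLX signal is above background, and the ratio may understate the change in RNA.

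Genes of norrin and beta-catenin signalling were read beside Tspan12. Of 19 measured, 1 was higher (Fzd4) and 0 were lower (5.26%, near the 6.18% of all genes), with a median of -0.03. Fzd4, the gene of the receptor that TSPAN12 binds, had log2 signals of 7.44, 7.30 and 7.48 on shHLX arrays, against 6.62, 6.79 and 6.80 on shControl arrays. It was thus 1.59-fold higher (95% confidence interval 1.42 to 1.77, limma adjusted p = 0.00103), opposite in direction to Tspan12. Lrp5 differed by 0.01 and Ndp, the norrin gene, by -0.07, and neither passed (adjusted p = 0.908 and 0.639). The targets Axin2 (-0.12) and Nkd1 (-0.08) did not pass either, nor did Znrf3 of the same list (0.13). Groups lay apart for Axin2, lower on shHLX arrays, and for Znrf3, higher on shHLX arrays. They lay apart for 6 of the 19 genes (31.6%), beside 26.2% of all genes. At an unadjusted p under 0.05 the list held 4 of its 19 genes, beside 19.4% of all genes.

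Tspan12 is also known from vessels, so endothelial markers are given beside it. Of 12 such markers measured, 0 were higher and 1, the endothelial cadherin gene Cdh5, was lower (log2 change -2.68, adjusted p = 6.66e-07). Called markers made up 8.33%, beside 6.18% of all genes. The log2 difference was negative for 10 of the 12, beside 10884 of the 19938 genes. The median was -0.10, beside -0.01 over all genes. The summed linear signal of the 12 was 3906 to 3985 on shHLX arrays and 4869 to 5107 on shControl arrays. Without Cdh5 the sum was 3789 to 3855 on shHLX arrays and 4113 to 4363 on shControl arrays, and without Cdh5 and Flt1 it was 1022 to 1101 on shHLX arrays and 1079 to 1140 on shControl arrays, which overlap. Flt1, a receptor gene for vascular growth factors, differed by -0.19 with arrays that did not overlap (adjusted p = 0.0708). As Cdh5 and Flt1 each lay apart between the groups, leaving them out favours overlap of the sum, and no conclusion is drawn from it. Kdr (-0.11), Tek (-0.02) and Tie1 (-0.19) did not pass, though the groups of Kdr lay apart as well. Groups lay apart for 3 of the 12 markers (25%), beside 26.2% of all genes. The part of these markers in the Tspan12 result was not tested.

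Cd63 encodes a tetraspanin of late endosomes, lysosomes, primary granules and secreted vesicles. Its log2 signals were 6.45, 6.31 and 6.49 on the shHLX arrays, against 7.20, 7.15 and 6.94 on the shControl arrays. The groups were apart, with shControl 3 the closest control to the shHLX arrays. Cd63 averaged 6.41 ± 0.096 on shHLX arrays and 7.10 ± 0.14 on shControl arrays (SD, n = 3 each). The shHLX signal was 62.2% of the shControl signal (95% confidence interval 54.6% to 71.0%, limma adjusted p = 0.00228), and the call was kept when any 1 array was left out but not without variance moderation (adjusted p = 0.0529).

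Genes of exosomes and late endosomes were read beside Cd63. Of 31, all measured, 1 was higher and 0 were lower (3.23%, beside 6.18% of all genes called in either direction), with a median of 0.03. The higher one, Hps1, of a complex that builds lysosome-related organelles, was 1.18-fold higher (adjusted p = 0.02) but with arrays left out 1 at a time it was called only without shHLX 3 (largest adjusted p 0.0979). The late endosome membrane genes Lamp1 (0.15) and Lamp2 (0.10) did not pass. Neither did Pdcd6ip (0.03) and Sdcbp (-0.04), whose products ALIX and syntenin take part in exosome formation, nor Ap3b1 (0.07), of the adaptor that sorts CD63 to lysosomes. At an unadjusted p under 0.05 the list held 7 of its 31 genes, beside 19.4% of all genes.

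Among the 6 tetraspanin genes known best from blood cells, Cd82 was lower and Cd53 higher, and Cd37, Cd81, Cd9 and Tspan32 did not pass. Cd82, also called KAI1 and known as a suppressor of metastasis, had log2 signals of 8.04, 8.05 and 7.99 on the shHLX arrays, against 9.13, 9.04 and 8.96 on the shControl arrays. The shHLX arrays spanned 0.054 and lay 0.92 below the nearest control. The means were 8.02 ± 0.029 on shHLX arrays and 9.04 ± 0.083 on shControl arrays (SD, n = 3 each). Its shHLX signal was 49.3% of the shControl signal (95% confidence interval 45.3% to 53.8%, limma adjusted p = 3.59e-05), the smallest adjusted p among the members.

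Cd53, a tetraspanin gene restricted to leukocytes, whose product steadies L-selectin on mouse lymphocytes, showed the largest rise. The log2 signals were 12.72, 12.75 and 12.74 on shHLX arrays, against 12.22, 12.10 and 12.15 on shControl arrays. The gap of 0.50 between the groups was wider than the range of either. Cd53 averaged 12.74 ± 0.016 on shHLX arrays and 12.15 ± 0.060 on shControl arrays (SD, n = 3 each), so that the shHLX signal was 149.6% of the shControl signal (95% confidence interval 139% to 161%, limma adjusted p = 0.000279).

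The other 4 blood cell members differed by less. Cd37, best known from B cells, had log2 signals of 11.64, 11.74 and 11.63 on shHLX arrays, against 11.56, 11.58 and 11.63 on shControl arrays. These overlapped, and signal on shHLX arrays was 105% of control (95% confidence interval 97.5% to 114%, adjusted p = 0.452). Cd81, a broadly expressed gene of the family, had 11.83, 11.86 and 11.86 on shHLX arrays, against 11.91, 11.98 and 11.92 on shControl arrays. All 3 shHLX values of Cd81 were below the controls, but the difference of -0.08 did not pass (adjusted p = 0.334).

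Cd9, a tetraspanin gene of platelets and of the egg surface, had log2 signals of 6.03, 6.23 and 6.07 on shHLX arrays, against 6.14, 6.16 and 6.27 on shControl arrays. The groups overlapped (difference -0.08, adjusted p = 0.562). Tspan32, a gene active mainly in blood cells, differed by 0.02 (95% confidence interval -0.08 to 0.12, adjusted p = 0.86). Markers of other blood cells did not pass limma: 0 of 6 platelet and megakaryocyte, 0 of 8 erythroid and 0 of 9 B cell genes were called. The lists had 1, 2 and 1 genes with an unadjusted p under 0.05 (19.4% of all genes had one), and 0 in each were called without variance moderation. Their summed signals were 638 to 744, 886 to 920 and 686 to 707 on shHLX arrays, and 712 to 778, 915 to 987 and 699.8 to 752 on shControl arrays.

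Of Cd151 and Tspan4, the members grouped here as integrin partners, only Cd151 passed. Cd151, whose product binds the laminin receptors among the integrins, had log2 signals of 9.71, 9.70 and 9.75 on shHLX arrays, against 9.45, 9.48 and 9.50 on shControl arrays. The groups did not overlap, and the rise was small: 1.18-fold (95% confidence interval 1.10 to 1.26, limma adjusted p = 0.0142). The call did not hold in the absence of shControl 1, 2 or 3 or of shHLX 1 (largest adjusted p 0.0588) and without both arrays set apart on the second principal component (adjusted p = 0.105). Tspan4, a tetraspanin gene of migrasomes, differed by -0.02 (95% confidence interval -0.12 to 0.08).

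Integrin subunit genes themselves moved in both directions. Of 17 measured, 2 were higher (Itgam and Itgb2) and 2 lower (Itgal and Itgb5), with a median of -0.03. Called genes made up 23.5% of the list, beside 6.18% of all genes, in a list chosen with earlier results of these data known. Groups lay apart for 8 of the 17 (47.1%), beside 26.2% of all genes. An unadjusted p under 0.05 was found for 7 of the 17, beside 19.4% of all genes. Itga3 (-0.13) and Itga6 (0.24), which encode the chains that CD151 binds, did not pass, and neither did their partner Itgb1 (0.15, adjusted p = 0.0914). The groups of Itga6 and Itgb1 did not overlap, however, with the shHLX values higher, the direction of Cd151. Itgam, the CD11b chain of a myeloid integrin, was 1.68-fold higher (adjusted p = 0.000615). Its partner chain Itgb2 was 1.16-fold higher, but with arrays left out 1 at a time it was called only without shHLX 3 (largest adjusted p 0.119). Itgb5 fell by 0.47 and Itgal by 0.39 on the log2 scale (adjusted p = 0.000663 and 0.00313).

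Direct partners outside the integrins included some of the larger changes. Of 28 measured, 3 were higher (Met, Ezr and Msn) and 3 were lower (Ifitm1, Kit and Cd44), with a median of -0.02. The called share was 21.4%, beside 6.18% of all genes, in a list chosen with earlier results of these data known. Ifitm1, an interferon-induced gene whose product binds CD81 on human lymphocytes, had log2 signals of 8.38, 8.54 and 8.40 on shHLX arrays, against 10.00, 9.76 and 10.05 on shControl arrays. The shHLX signal was 35.4% of control (adjusted p = 4.38e-05). Kit, the stem cell factor receptor gene, whose product sits with CD9, CD63 and CD81 in human myeloid cells, fell by 0.73 on the log2 scale (adjusted p = 6.37e-05).

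The hyaluronan receptor gene Cd44 fell by 0.34 (adjusted p = 0.0026), and the growth factor receptor gene Met was 1.42-fold higher (adjusted p = 0.00541). Ezr, for ezrin, which links membrane proteins to actin, was 1.30-fold higher, and Msn, for the related moesin, 1.16-fold. Leaving out any 1 array ended the call of Msn, with an adjusted p of 0.0648 to 0.118. Igsf8 (0.04) and Ptgfrn (-0.13), which encode the partners bound most directly by CD9 and CD81, did not pass (adjusted p = 0.681 and 0.438).

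**Figure D3:**
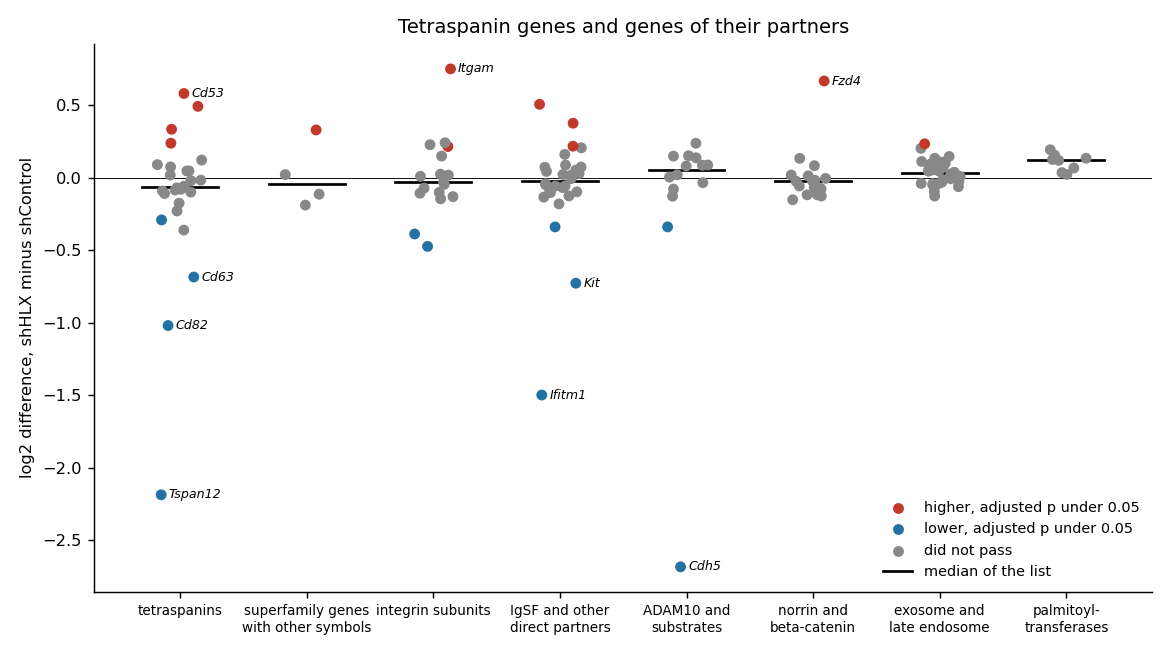
Log2 difference (shHLX minus shControl) of every measured gene in the tetraspanin family and in 7 lists of related genes, with 1 point per gene, spread sideways for legibility, and a black line at the median. Names are given for the called genes with the larger differences. The medians lie between -0.06 and 0.12, and the largest changes are single points.

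The TspanC8 members, named for the cysteines of their large loop, escort the protease ADAM10 to the surface. Of these 6 genes, Tspan17 was lower and Tspan5, Tspan10, Tspan14, Tspan15 and Tspan33 did not pass. Tspan17 had log2 signals of 9.38, 9.55 and 9.42 on shHLX arrays, against 9.66, 9.79 and 9.76 on shControl arrays. The groups were separate, but only by 0.11 between shHLX 2 and shControl 1. Signal on shHLX arrays was 81.8% of control (95% confidence interval 74.1% to 90.2%, limma adjusted p = 0.0321), a call that did not hold in the absence of shControl 2 or 3 or of shHLX 1 or 3 (largest adjusted p 0.128).

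For the other TspanC8 genes the log2 differences were -0.23 (Tspan15), -0.10 (Tspan33), -0.07 (Tspan10), 0.05 (Tspan14) and 0.05 (Tspan5). Tspan15, a partner of ADAM10 in the shedding of N-cadherin, had the widest interval of these, 74.8% to 97.3% of control (adjusted p = 0.174). Adam10 had log2 signals of 10.36, 10.39 and 10.45 on shHLX arrays, against 10.40, 10.41 and 10.38 on shControl arrays, which overlapped (95% confidence interval of the ratio 0.934 to 1.08). Of 14 genes in the list of Adam10, the related Adam17 and their substrates, 0 were higher and 2 (Cdh5 and Cd44) were lower. This is 14.3% called, beside 6.18% of all genes, with a median of 0.05, in a list chosen with earlier results of these data known. The substrate genes Notch1 (0.14, adjusted p = 0.117) and Notch2 (0.24, adjusted p = 0.0541) did not pass limma, though their groups did not overlap. In this list the groups lay apart for 8 of the 14 genes (57.1%), beside 26.2% of all genes. An unadjusted p under 0.05 was found for 6 of the 14, beside 19.4% of all genes.

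Of the remaining 10 members, Tspan6 and Tspan13 were higher and 8 did not pass. Tspan6, whose product dampens antiviral signalling in human cells, had log2 signals of 6.15, 6.29 and 6.22 on shHLX arrays, against 5.82, 5.61 and 5.75 on shControl arrays. These groups were apart, and the rise was 1.41-fold (95% confidence interval 1.27 to 1.56, limma adjusted p = 0.00371), though not past the threshold without variance moderation (adjusted p = 0.054). Tspan13 had 6.06, 6.18 and 6.18 on shHLX arrays, against 5.80, 5.82 and 5.80 on shControl arrays. It was 1.26-fold higher (95% confidence interval 1.17 to 1.36, limma adjusted p = 0.00584). Both genes were dim, at percentile 22.0 (Tspan6) and 22.1 (Tspan13) of signal. Without detection values, their signal over background is unknown.

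Among these 8 genes, Tspan2 and Tspan31 were apart between the groups. Tspan2, a gene of myelin-forming cells, had log2 signals of 5.80, 5.64 and 5.57 on shHLX arrays, against 6.01, 6.21 and 5.88 on shControl arrays, or 77.9% of control (95% confidence interval 66.9% to 90.6%, adjusted p = 0.0726). It passed when the variance model followed intensity (adjusted p = 0.0265) and with arrays centred on their medians (adjusted p = 0.0273). Tspan31, a gene co-amplified with CDK4 in human sarcomas, had 12.68, 12.69 and 12.69 on shHLX arrays, against 12.60, 12.59 and 12.59 on shControl arrays. Its replicates were the tightest of the family (SD 0.0083 on shHLX and 0.0058 on shControl arrays), so that the difference of 0.09 had an adjusted p of 0.258 with moderated variance, 0.0166 when the variance model followed intensity and 0.0113 without moderation.

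The other 6 of these genes gave overlapping groups. Their log2 differences were -0.17 (Tspan11), -0.11 (Tspan9, a platelet tetraspanin gene), -0.09 (Tspan1), -0.06 (Tspan3), -0.02 (Tspan18) and 0.12 (Tspan8, an epithelial one). Their adjusted p lay between 0.258 and 0.874. Over the 18 members that did not pass, the 95% confidence intervals of the log2 difference ran from -0.58 at the lowest (Tspan2) to 0.24 at the highest (Tspan8).

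Some members lie next to each other in the genome, by the order of genes in RefSeq (assembly GRCm38.p6). Cd82 and Tspan18 are neighbours on chromosome 2 with 0 coding genes between them, and their log2 differences were -1.02 and -0.02. Cd151 and Tspan4 on chromosome 7 have 1 coding gene between them and differed by 0.24 and -0.02. Tspan32 and Cd81 on chromosome 7, and Tspan11 and Tspan9 on chromosome 6, are direct neighbours in which neither gene passed. Whether such neighbours differ from each other was not tested.

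The sequences before the starts of the 4 members with the largest changes, Tspan12, Cd82, Cd63 and Cd53, are shown because these genes carry the result and the study concerns a homeodomain factor. They are the 250 bases before the outermost start listed by RefSeq (GRCm38.p6), read 5′ to 3′ on the strand of the gene. Capitals mark TAAT, the core that homeodomain proteins bind, and GAGGAA, a purine-rich core of ETS factors such as PU.1, each searched on both strands, with overlapping matches joined.
Tspan12, chr6:21852534-21852783, minus strand: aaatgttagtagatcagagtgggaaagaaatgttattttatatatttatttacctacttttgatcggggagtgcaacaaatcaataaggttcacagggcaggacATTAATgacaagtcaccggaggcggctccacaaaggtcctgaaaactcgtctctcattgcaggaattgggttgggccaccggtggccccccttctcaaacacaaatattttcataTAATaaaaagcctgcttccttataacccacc
Cd82, chr2:93462951-93463200, minus strand: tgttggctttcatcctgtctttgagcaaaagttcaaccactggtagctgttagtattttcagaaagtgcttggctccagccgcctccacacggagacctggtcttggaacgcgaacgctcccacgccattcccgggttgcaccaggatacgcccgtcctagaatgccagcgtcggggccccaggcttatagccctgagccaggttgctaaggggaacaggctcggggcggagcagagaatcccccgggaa
Cd63, chr10:128909095-128909344, plus strand: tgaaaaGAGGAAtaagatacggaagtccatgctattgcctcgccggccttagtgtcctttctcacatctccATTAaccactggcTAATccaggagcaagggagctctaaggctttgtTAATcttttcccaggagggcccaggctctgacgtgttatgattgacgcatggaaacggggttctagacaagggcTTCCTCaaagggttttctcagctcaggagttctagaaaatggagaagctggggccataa
Cd53, chr3:106790150-106790399, minus strand: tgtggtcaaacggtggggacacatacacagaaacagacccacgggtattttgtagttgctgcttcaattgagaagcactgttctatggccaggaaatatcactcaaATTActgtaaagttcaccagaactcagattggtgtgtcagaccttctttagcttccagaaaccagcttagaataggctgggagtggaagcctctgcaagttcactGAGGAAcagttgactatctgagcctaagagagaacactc

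By these letters, Tspan12 held 3 matches of TAAT and 0 of GAGGAA, Cd82 held 0 of either, Cd63 held 3 and 2, and Cd53 held 1 and 1. The promoter table matched 25 of the 26 members by Entrez identifier, and Tspan18 was not matched. TAAT stood before 6 of the 8 called members and 8 of the 17 others, and before 55.4% of all 27025 genes with a listed start. GAGGAA stood before 3 of the 8 called members and 4 of the 17 others, and before 23.1% of all genes. The longer homeodomain site TAATTA, which contains TAAT, stood before 1 member (Tspan1) and 4.91% of all genes. These matches describe the letters in the window and were not tested for binding.

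Tetraspanins are anchored through palmitate, and the genes of palmitoyltransferases were read beside them. All 8 measured had positive log2 differences, from 0.02 (Zdhhc5) to 0.19 (Zdhhc2, whose product palmitoylates CD9 and CD151), with a median of 0.12. Over all genes, 9054 of 19938 differences were positive and the median was -0.01. Groups lay fully apart for 6 of the 8 (75%), beside 26.2% of all genes. Limma called 0 of the 8 over all genes, 3 had an unadjusted p under 0.05 (beside 19.4% of all genes), and 0 were called without variance moderation. Zdhhc2 had log2 signals of 10.66, 10.63 and 10.67 on shHLX arrays, against 10.52, 10.41 and 10.45 on shControl arrays (adjusted p = 0.054).

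**Figure D4:**
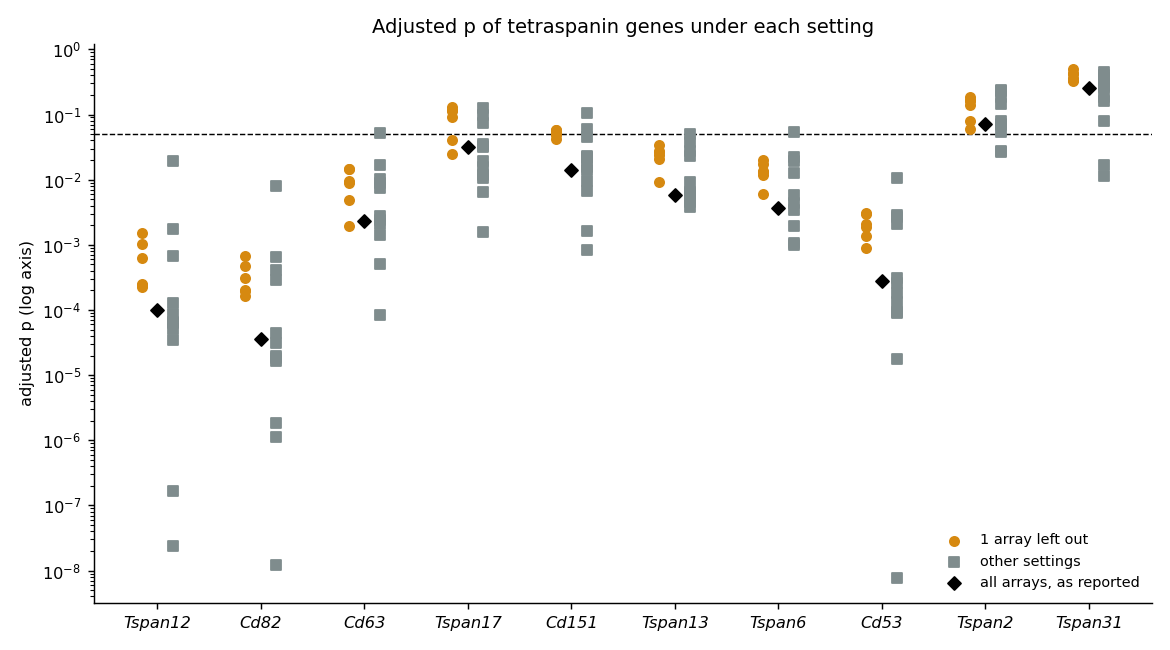
Adjusted p (log axis) of the 8 called tetraspanin genes and of Tspan2 and Tspan31. Diamonds give all arrays, circles each of the 6 fits with 1 array left out, and squares the other settings. The dashed line is 0.05. Cd82, Tspan12, Tspan13 and Cd53 stay below it wherever they were tested. Tspan17 and Cd151 cross it when arrays are left out. Tspan17 also crosses it with all probe sets tested, and Cd151 with the replicate number as a block. Cd63, Tspan6 and Tspan17 cross it without variance moderation.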

How the data were processed

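The deposited values are log2 signals per probe set, 1 column per array. Per the submitters' processing notes, the authors used RMA, which corrects background, equalises array distributions and summarises probes, with Affymetrix Power Tools 1.178. Build and probe set definitions: not given in the sources used here. Per the labels' protocols, 10 ng of RNA was amplified before labelling. Of 35556 probe sets, 21789 had exactly 1 symbol, 1621 several and 12146 none listed. Each gene took its brightest probe set by mean over the 6 arrays, giving 19938 genes. All 26 member symbols matched RefSeq by Entrez identifier.

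The comparison of shHLX with shControl used limma 3.58.1 in R 4.3.3 (lmFit and eBayes, two-sided, without covariates). P-values were adjusted by Benjamini-Hochberg over all 19938 genes, and 0.05 was the threshold. The code was tested on simulated data. Figures used matplotlib 3.10.9 in Python 3.11.15. Named were every member, Hlx, called partner genes and fixed key partners. Axin2, Nkd1, Znrf3, Kdr, Tek, Tie1, Lamp1, Lamp2, Itga3, Itga6, Notch1, Notch2, Zdhhc2 and Zdhhc5 were added after their values were seen. Members and lists were chosen with earlier results of these data known. No source used here says whether replicates came from separate transductions, so the p-values cover the spread between these arrays, which may be technical, and the number of arrays limits the precision.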

Additional observations from a re-analysis of the deposited data

How the results depend on the processing

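Over 19 alternatives, the 8 called tetraspanin genes kept their direction, and Tspan12, Cd82, Tspan13 and Cd53 kept their calls wherever they were tested. The counts of members (4 higher, 4 lower) became 2 and 4 among genes above the 25th percentile of signal, where Tspan6 and Tspan13 were not tested, and 2 and 2 above the median, where Tspan12 and Cd63 were not tested either. Without variance moderation they were 4 and 2, with Tspan31 gained and Cd63, Tspan17 and Tspan6 lost. With 1 array left out they ranged from 3 to 4 in each direction, and without both shControl 1 and shHLX 3, chosen after seeing the data, they were 3 and 3. With all 35556 probe sets tested, Tspan17 was not called (adjusted p = 0.0993).

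Of 120 partner genes, in lists chosen with earlier results known, 8 were higher and 6 lower, or 11.7% called beside 6.18% of all genes. The higher count became 15 above the median of signal, 22 with an intensity trend and 14 at an adjusted p under 0.10. It was 5 without moderation, 4 with all probe sets and 5 without both arrays. With 1 array left out it was 4 to 7 (4 without any array but shHLX 3). Among all genes, 748 higher and 485 lower became 1295 and 769 above the median of signal, 1437 and 824 with an intensity trend, 454 and 262 with all probe sets, and 459 and 282 without both arrays. Without moderation 306 were lower. With 1 array left out they ranged from 441 to 544 higher and 257 to 369 lower. The lowest counts came without shControl 3 (441 and 257), shHLX 1 (490 and 276) and, for lower genes, shControl 2 (281). Apart from the smaller sets of genes or arrays, the cause was not tested.

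Replicate numbers did not pair the arrays: deviations of same-numbered arrays correlated at -0.17, 0.13 and -0.15, and 0 of 3 shHLX arrays correlated best with its own number. With the replicate number as a block, 497 genes were higher and 303 lower, 4 partner genes were higher, and 3 members were higher and 4 lower, as Cd151 was not called (adjusted p = 0.0593). Hlx stayed between -0.10 and -0.05 with 1 array left out and was called under no alternative. Without detection values, the signal over background of dim genes such as Tspan12 on shHLX arrays stays unknown.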

Other observations

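Genes of the tetraspanin superfamily with symbols outside the family pattern were read as well. Of Prph2, Rom1, Upk1a and Upk1b, the uroplakin gene Upk1a, known from bladder epithelium, was higher on shHLX arrays. Its log2 signals were 8.18, 8.14 and 7.94 on shHLX arrays, against 7.69, 7.79 and 7.78 on shControl arrays, 1.26-fold higher (limma adjusted p = 0.0334). With arrays left out 1 at a time it was called only without shHLX 3 (largest adjusted p 0.115). Prph2 (-0.19), Rom1 (0.02) and Upk1b (-0.11) did not pass.

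Of 10 stromal markers, Acta2 was higher (log2 difference 0.92) and 9 were not called (10% called, beside 6.18% of all genes). The summed linear signal of all 10 was 2538 to 2868 on shHLX arrays and 1934 to 2042 on shControl arrays. Without Acta2 the other 9 summed to 1177 to 1349 on shHLX arrays and 1189 to 1253 on shControl arrays. Of 12 myeloid markers, Itgam (log2 difference 0.75) and Lyz2 (0.39) were higher and Mpo (-1.46) and Kit (-0.73) were lower (33.3% called, beside 6.18% of all genes). The 12 summed to 61634 to 62308 on shHLX arrays and 61752 to 63502 on shControl arrays. A linear sum follows mostly the brightest genes, so nothing is concluded from it on the others. The part of these markers in the tetraspanin results was not tested.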
